A study of Sus scrofa with 7 samples.

Results

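Marker genes of the choroid plexus epithelium were examined in hypothalamic RNA of piglets whose distal ileum was infused with antibiotics or with saline alone. The 5 genes were TTR, CLIC6, KL, FOLR1 and PRLR, taken by symbol from the authors' deposited table of 16991 features. Where a symbol had more than 1 row, the tested row with the highest mean level was used, which concerned FOLR1 alone among the 5. All animals were of the strain Duroc x Landrace x Large White, had an age given as postnatal day 45, and had been fitted with a T-cannula, an implanted tube that gives access to the distal ileum. Controls were infused with 10 mL of 0.9% saline, and the antibiotic group with 10 mL of saline that held 3 antibiotics, for which the daily dose per kg of body weight was 150 mg of ampicillin, 4 mg of gentamicin and 30 mg of metronidazole. Of 12 randomised piglets, 4 control and 3 antibiotic hypothalami have RNA-seq libraries in the series.

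The choroid plexus is a folded epithelium that hangs into the brain ventricles, secretes cerebrospinal fluid and forms the barrier between blood and that fluid. One sheet of it lies in the roof of the third ventricle, which the hypothalamus borders lower down. Its cells are known for making transthyretin in very large amounts, for carrying folate into the fluid, and for a dense set of ion and solute transporters. In bulk tissue, fewer cells of a type and less RNA per cell cannot be told apart.

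The authors' deposited table gives 1 FPKM value per gene and group, that is, fragments scaled to transcript length and to mapped fragments. Values of individual libraries are not in it, so neither their depth nor the spread between animals is known. The only error estimate is the one inside the authors' own p and q, and no source used here says how the libraries entered their test. Below, "rose" and "fell" are used of genes with an authors' q under 0.05, and "log2 fold" means the log2 of antibiotic over control FPKM. Of 13352 features the authors tested, 41.1% passed this threshold, 22.2% downwards and 19.0% upwards, so a call is common in this table. The median log2 fold of all tested features was -0.03. Every direction below is on the deposited scale. Some list directions, such as the negative median of the meningeal and fibroblast list, would differ on an alternative scale, given at the end, that raises the median log2 fold by 1.13. The negative median of the blood list and the positive list medians would keep their sign.

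As a check of the tissue, hypothalamic peptide genes were present in the authors' deposited table in both groups. AVP, the vasopressin gene, had 210.6 FPKM in the control group and 181 in the antibiotic group, HCRT, the orexin gene, had 13.2 and 11.5, and SNAP25, a synaptic gene of neurons, had 227 and 218. SNAP25 was chosen after its value was seen and does not stand for neuron markers in general. Of 5 tested neuron markers 2 rose and 1 fell. Other peptide genes were not alike in the groups. Control and antibiotic values were 281.6 and 18.6 FPKM for PMCH, whose product is melanin-concentrating hormone, and 310.1 and 96.8 FPKM for OXT, which encodes oxytocin, so that they fell 15.1-fold and 3.20-fold (both with a deposited q = 0.000336). The part of differences in the tissue sampled in the results below was not tested. TTR was the most abundant of the 5 genes, followed by FOLR1 at 46.2 FPKM in control and 53.7 in antibiotic. How far either stands for plexus epithelium in this tissue was not tested. PRLR was below 1 FPKM in both groups, and AQP1 and KCNE2, which are also used to mark this epithelium, could not be matched to a row and were not analysed.

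Of the 5 marker genes, 3 fell in the antibiotic group, FOLR1 did not pass the threshold and PRLR had not been tested by the authors. TTR fell from 288.6 to 70.6 FPKM, CLIC6 from 3.44 to 0.683 and KL from 1.44 to 0.598 in the authors' deposited table, so that the antibiotic value was 24.5%, 19.9% and 41.5% of the control value. FOLR1 had 46.2 FPKM in the control group and 53.7 in the antibiotic group. Among all tested features 22.2% fell, and the markers were chosen with earlier results of these data known, so their count is a description. All 3 also met the authors' stricter rule, q under 0.05 with at least a 2-fold change, which 8.44% of tested features met downwards. TTR, CLIC6 and KL are accordingly listed in the 2 further sheets of the deposit, which hold 2111 and 1389 of the significant features.

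**Figure D1:**
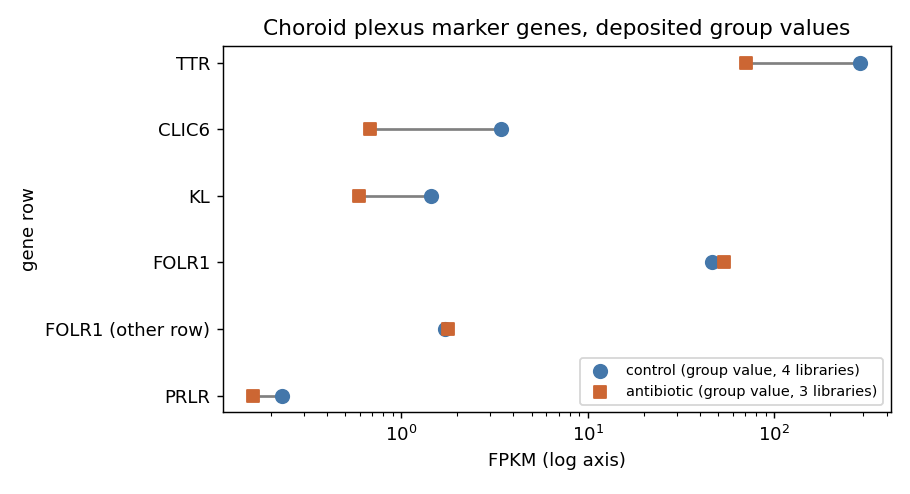
Deposited FPKM of the 5 choroid plexus marker genes on a log axis, with the control group value (4 libraries) as circles and the antibiotic group value (3 libraries) as squares; no error bars are drawn because the table holds 1 value per group. TTR, CLIC6 and KL lie lower in antibiotic, while both FOLR1 rows lie almost at the same level in the groups.

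TTR encodes transthyretin, the carrier that the plexus secretes into cerebrospinal fluid, where it binds thyroxine and, through retinol-binding protein, retinol. Its row lies on chromosome 6 from 108123914 to 108131568 in the deposited table. Per the submitters' processing notes the builds were susScr3 and mm8, with no statement of which applies to these coordinates. TTR was 4.09-fold lower in antibiotic (log2 fold -2.03, deposited q = 0.000336). By level it ranked 281st of 16991 features in control and 939th in antibiotic, and such a rank does not depend on how the groups were scaled. Among tested features 1.86% had a lower log2 fold than TTR. At levels within 2-fold of TTR's mean the table held 611 tested features, and 15.5% of these fell by at least 2-fold. The q of TTR and CLIC6 is the smallest that the table contains and is shared by 2081 features, so it cannot rank these genes against the others.

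CLIC6 encodes a member of the chloride intracellular channel family that is enriched in plexus epithelium. Its row lies on chromosome 13 from 208080350 to 208131063. CLIC6 was 5.03-fold lower in antibiotic (log2 fold -2.33, deposited q = 0.000336), the largest fall of the 5 on the deposited scale. Of all tested features, 1.23% had a lower log2 fold. Its level was far below that of TTR, by 84.0-fold in control and 103-fold in antibiotic. Of the 3353 tested features within 2-fold of its mean level, 6.65% fell by at least 2-fold. With 1 FPKM added to both values the log2 fold was -1.40.

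KL encodes klotho, a membrane protein that serves as co-receptor for the hormone FGF23 and whose outer part is shed into cerebrospinal fluid and blood. It maps to chromosome 11 from 9345004 to 9392395. KL was 2.41-fold lower in antibiotic (log2 fold -1.27, deposited q = 0.00114), and 6.07% of tested features had a lower log2 fold. Both of its values were near 1 FPKM, and with 1 FPKM added to each the log2 fold was -0.61, which is short of 2-fold.

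FOLR1 encodes the high-affinity folate receptor by which plexus cells move folate from blood into cerebrospinal fluid. The deposited table has 2 neighbouring rows of this name on chromosome 9. The row used here, from 7507498 to 7511916, carries 46.2 FPKM in control and 53.7 in antibiotic (log2 fold 0.22, deposited q = 0.324). The other row, from 7515001 to 7521922, stood at 1.71 and 1.77 FPKM (log2 fold 0.05, q = 0.939). Neither row passed the threshold, and the sum of both gave a log2 fold of 0.21. RefSeq's gene table for the assembly Sscrofa11.1 also holds 2 genes named FOLR1 on chromosome 9, with spans of 4418 and 6921 bases, which equal the spans of the 2 deposited rows. Which of the 2 is the receptor of plexus cells is not settled by the sources used here. These genes and the adjacent FOLR2 are close relatives, and no source used here says how the authors' counting divided shared reads between them. The table lists FOLR2, a folate receptor of macrophages, in 2 rows of 1 locus, at 9.71 and 12.8 FPKM (q = 0.167) and at 5.18 and 6.35 FPKM (q = 0.807) in control and antibiotic.

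PRLR encodes the prolactin receptor, a cytokine receptor that signals through JAK2 and STAT5 and that in plexus epithelium is linked to the passage of prolactin into the fluid. The row on chromosome 16 from 21539825 to 21558491 was listed at 0.229 FPKM in control and 0.161 in antibiotic. The authors had not tested it, so its log2 fold of -0.51 has no test.

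The order of the markers by FPKM was the same in both groups, with TTR highest, followed by FOLR1, CLIC6, KL and PRLR. Whether neighbours in that order differ beyond the spread between animals could not be tested. Ratios of markers within a group are left as they are by any common factor per group, though not by quantile normalization, and they showed an unequal change. TTR exceeded FOLR1 6.25-fold in control and 1.32-fold in antibiotic, so the ratio was 4.74 times as large in control. The ratio of CLIC6 to FOLR1 was 5.84 times as large in control, and that of KL to FOLR1 2.80 times. Between TTR and CLIC6 the ratio was 84.0 in control and 103 in antibiotic. These ratios carry no test, because the table holds no value per library.

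**Figure D2:**
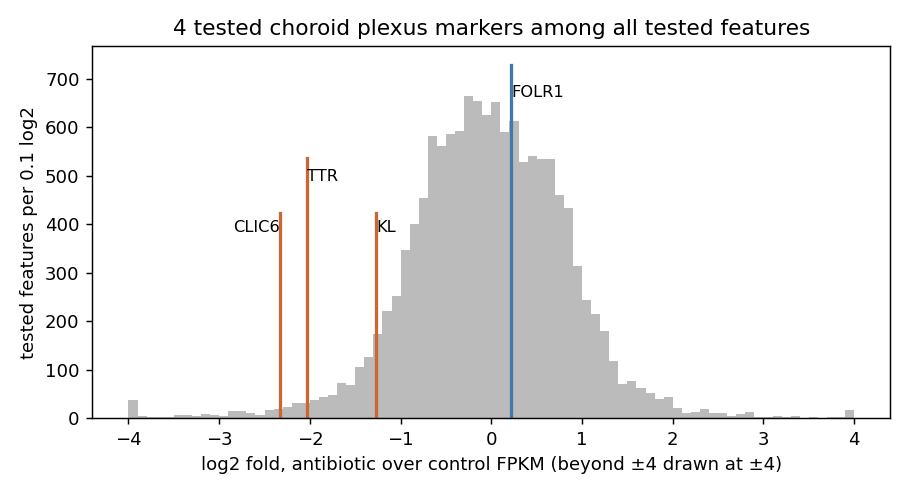
Distribution of the log2 fold (antibiotic over control FPKM) over all tested features in steps of 0.1, with vertical lines for the 4 tested choroid plexus markers; line heights carry no value. CLIC6 at -2.33, TTR at -2.03 and KL at -1.27 lie in the lower tail, and FOLR1 at 0.22 lies near the middle.

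No row of the 5 markers overlapped another row of the table, although reads could still be shared between the related folate receptor genes. As a description over the 2 group values, the named and tested features closest to each marker in log2 control and log2 antibiotic FPKM were sought. For TTR these were CDH2 (neural cadherin, 240.7 and 74.2 FPKM), PPP1CB (a phosphatase subunit, 250.8 and 89.5) and IQCJ-SCHIP1 (289.5 and 52.1), at straight-line distances of 0.27, 0.40 and 0.44 log2 units. The closest features to CLIC6 were ZNF165 and CCDC112, at distances of 0.09 and 0.23. TNFSF13B, TBC1D8B and TMEM114 lay nearest to KL, each within 0.05 log2 units. EIF3G, EPHX1 and ECE1 lay nearest to FOLR1, at 0.05, 0.06 and 0.06. For PRLR the closest tested feature was PARP15, at 0.647 and 0.168 FPKM, more than 1 log2 unit away.

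A wider list of 48 genes used by or typical of plexus epithelium, many of which other brain cells also express, gave a mixed picture. Of these, 34 were matched to a row and 31 had been tested; 10 fell, 6 rose and 15 did not pass. The share that fell was 32.3% against 22.2% of all tested features, and the share that rose was 19.4% against 19.0%. At least 2-fold falls were seen in 3 genes (9.68%, against 8.44% of all tested features) and at least 2-fold rises in 4 (12.9%, against 7.37%). The median log2 fold of the list was -0.14, beside -0.03 for all tested features. On these counts the wider list was near the background of the table.

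The 3 genes of the wider list with at least a 2-fold fall were KCNJ13, SLC5A5 and SLC16A12. KCNJ13, the inwardly rectifying potassium channel Kir7.1 of the apical plexus membrane, fell from 5.53 to 1.09 FPKM (5.06-fold, deposited q = 0.000336). Its row overlaps another row of the table, and reads of the stretch in common could belong to either. SLC5A5, the sodium-iodide symporter, fell from 2.60 to 0.601 FPKM (4.33-fold, q = 0.000336). SLC16A12, a creatine transporter of the monocarboxylate family, fell from 0.699 to 0.202 FPKM (3.46-fold, q = 0.00271). Their log2 folds of -2.34, -2.11 and -1.79 stood beside -2.33 for CLIC6 and -2.03 for TTR. SLC13A4, a sulfate transporter of plexus cells, had 2 rows at the same coordinates on chromosome 18. The more abundant row went from 51.9 to 35.9 FPKM (q = 0.333), and the other fell from 4.41 to 0.947 FPKM (q = 0.00207), as the authors' deposited table lists them.

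Genes of cerebrospinal fluid secretion changed in both directions. ATP1B1, a beta subunit of the sodium pump, stood at 166 and 173 FPKM (q = 0.824), as the authors' deposited table lists it. SLC4A2, an anion exchanger of the basolateral membrane, rose from 3.22 to 7.04 FPKM (q = 0.000336), while the sodium and bicarbonate transporter SLC4A10 fell from 13.3 to 9.28 FPKM (q = 0.0289). SLC4A5, a bicarbonate transporter of the apical membrane, stood at 1.02 and 0.630 FPKM (q = 0.0518). The cotransporter SLC12A2, known as NKCC1, stood at 33.3 and 26.0 FPKM (q = 0.136), and the carbonic anhydrase gene CA2 at 59.0 and 66.5 (q = 0.439). Most of these are also expressed by neurons or glia, so their levels are not those of the plexus alone.

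Among secreted and matrix products, ENPP2, which encodes autotaxin and is also made by oligodendrocytes, fell from 355.7 to 212 FPKM (q = 0.00138). CP, the copper-carrying ferroxidase ceruloplasmin, fell from 44.9 to 23.7 FPKM (q = 0.0254), and its row overlaps that of HPS3. SULF1, a heparan sulfate sulfatase, fell 1.69-fold (q = 0.00831), whereas BMP7, a growth factor, rose from 9.03 to 21.8 FPKM (q = 0.000336), as the authors' deposited table lists them. STRA6, the receptor for retinol-binding protein, rose from 2.66 to 5.30 FPKM (q = 0.000336). SLC29A4, a monoamine transporter, rose 2.09-fold (q = 0.0241), and SLC26A11, an anion transporter, rose from 0.235 to 0.973 FPKM (q = 0.0237). Another row named SLC26A11 went the other way, from 0.559 to 0.280 FPKM, and had not been tested.

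Transcription factors and epithelial genes were also measured. OTX2, a transcription factor required for plexus formation, stood at 9.68 FPKM in the control and 11.4 in the antibiotic group (deposited q = 0.381). LMX1A, another factor of the plexus lineage, was listed at 0 in control and at 0.282 FPKM in antibiotic and was not tested. KRT8, an epithelial keratin, fell from 10.9 to 5.98 FPKM (q = 0.000625), CAB39L fell 1.61-fold (q = 0.00138) and GPX8, a peroxidase of the endoplasmic reticulum, fell 1.94-fold (q = 0.0056). The channel gene TRPM3 stood at 9.52 and 11.5 FPKM (q = 0.209), and VAT1L at 21.3 and 19.3 (q = 0.522). The genes that fell with TTR thus did not include OTX2 or FOLR1, but the difference between these folds could not be tested.

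**Figure D3:**
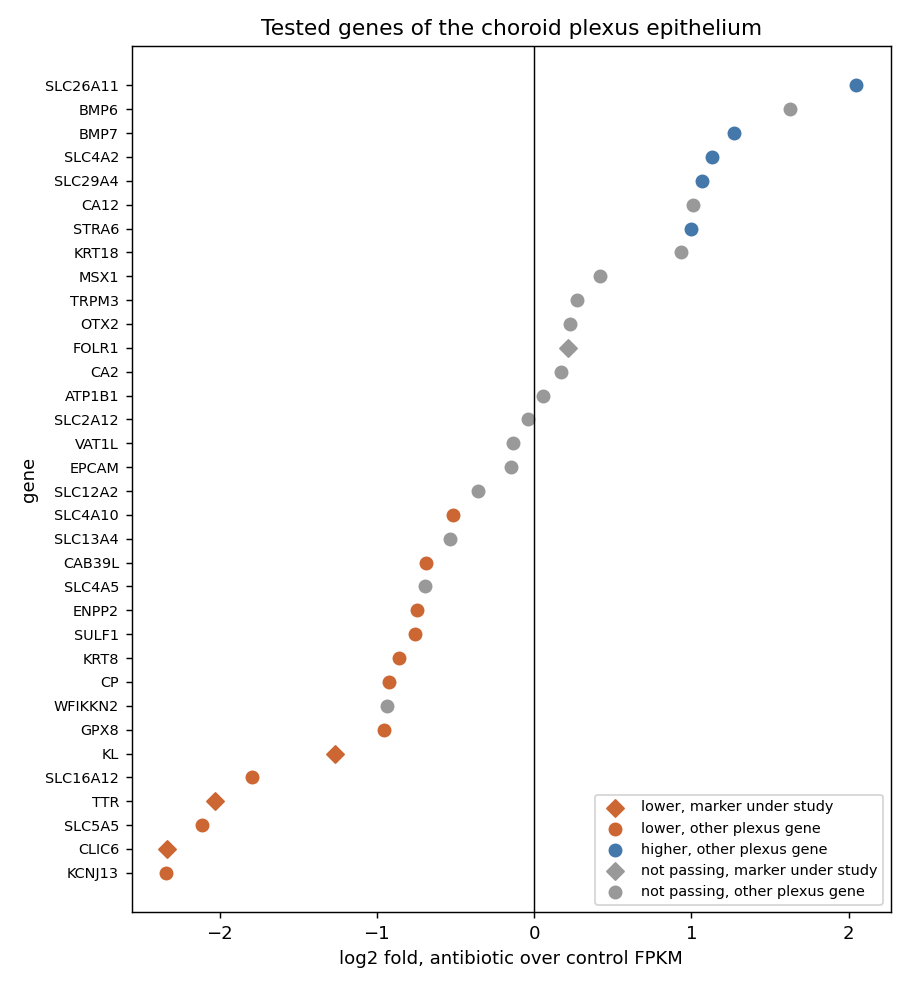
Log2 fold (antibiotic over control FPKM) of tested choroid plexus genes in the deposited table, with diamonds for the 4 tested markers and circles for 30 of the 31 tested genes of the wider list (the other is not reported here), coloured by the authors' q at 0.05. KCNJ13, CLIC6, SLC5A5, TTR, SLC16A12 and KL form the lower end between -2.34 and -1.27, and FOLR1 and OTX2 lie just above 0.

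The pathways in which the markers act were described from further lists. Among genes named above and below, the rows of SLC12A2, CCDC153 and ALAS2 overlap that of another gene, so their values may include its reads. For thyroid hormone and retinol handling, the cargo of TTR, 21 genes had been tested, and the list's median log2 fold was 0.14. Of the 21 genes 2 fell (9.52%), 4 rose (19.0%) and 15 did not pass. Over all tested features 22.2% fell and 19.0% rose. CRABP1, an intracellular retinoic acid binder, fell from 26.4 to 8.42 FPKM, while ALDH1A1, which makes retinoic acid, rose from 7.55 to 23.6 FPKM and HR, a corepressor of the thyroid hormone receptor, rose from 2.71 to 6.35 FPKM (each with a deposited q = 0.000336). RBP4, the retinol-binding protein that travels with TTR in blood, stood at 5.72 and 8.08 FPKM (q = 0.121), named after its value was seen.

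Among klotho's partners and calcium and phosphate genes 12 had been tested, and the list's median log2 fold was 0.19. Of the 12 genes 2 rose, 2 fell and 8 did not pass. The share was 16.7% each way, beside 19.0% upwards and 22.2% downwards of all tested features. FGFR3, an FGF receptor, rose from 6.11 to 37.2 FPKM and FGF1, a growth factor, rose from 26.7 to 43.0 FPKM (both with a deposited q = 0.000336). FGFR2 fell from 69.0 to 37.5 FPKM (q = 0.00138), and ADAM10, a protease that sheds klotho, fell from 24.8 to 14.4 FPKM (q = 0.000336).

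For folate uptake and one-carbon enzymes, 17 genes had been tested, and the list's median log2 fold was -0.01. Of the 17 genes 5 fell (29.4%, beside 22.2% of all tested features), 2 rose (11.8%, beside 19.0%) and 10 did not pass. SLC19A1, the reduced folate carrier, rose from 2.07 to 4.55 FPKM (q = 0.00229), and GGH, which trims folate polyglutamates, fell from 6.54 to 3.29 FPKM (q = 0.000336), as the authors' deposited table lists them.

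In prolactin receptor signalling 16 genes had been tested, and the list's median log2 fold was 0.08. Of the 16 genes 2 fell, 2 rose and 12 did not pass. The share was 12.5% each way, beside 22.2% downwards and 19.0% upwards of all tested features. JAK2, the kinase bound to the receptor, fell from 3.89 to 2.31 FPKM (q = 0.0474), as the authors' deposited table lists it. SOCS7 and IRS1 rose 1.40-fold and 1.73-fold (q = 0.0353 and 0.0392). STAT5B, a transcription factor below the receptor, stood at 11.5 FPKM in both groups (q = 0.988), named after its value was seen. The related STAT5A had 2 rows that went opposite ways. These stood at 5.43 and 7.10 FPKM (q = 0.103) and, not tested, at 2.23 and 0.856 FPKM. Within the CLIC family, CLIC4 fell from 138 to 70.6 FPKM and CLIC2 from 12.1 to 6.39 FPKM (both q = 0.000336), and CLIC5 stood at 1.08 and 1.20 FPKM (q = 0.727).

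Markers of tissue that adjoins or supplies the plexus were read beside these results. Blood transcripts moved in the same direction as TTR, since HBB, a beta-globin gene, fell from 5400 to 386 FPKM and HBA, alpha-globin, from 5677 to 729 FPKM (both with a deposited q = 0.000336). The row of HBA overlaps other globin rows, and ALAS2, the haem synthesis enzyme of red cells, stood at 3.36 and 3.09 FPKM (q = 0.814). Of 6 matched blood genes 3 had been tested and 2 fell (66.7%, beside 22.2% of all tested features). The summed level of the list was 11086 FPKM in control and 1120 in antibiotic, with HBE1 listed at 0 in control. Meningeal and fibroblast markers summed to 154 and 89.7 FPKM, and the list's median log2 fold was -1.03. None of 10 tested genes rose by the authors' q, beside 19.0% of all tested features (2 were higher at an unadjusted p under 0.05). Of the 10 genes 5 did not pass and 5 fell (50%, beside 22.2% of all tested features). Among them the matrix genes OGN, COL1A2, DCN and COL3A1 fell 4.02-fold, 3.64-fold, 2.46-fold and 2.38-fold (each q = 0.000336). The 5 that did not pass were mixed: SLC6A13, SLC22A6, PDGFRA and BMP6 were higher in antibiotic and SLC22A8 was lower. In control and antibiotic, SLC22A6 stood at 4.10 and 6.21 FPKM (q = 0.0628) and SLC6A13 at 1.29 and 1.69 FPKM (q = 0.333). The part of blood and of meningeal tissue in the falls of TTR, CLIC6 and KL was not tested.

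The list of endothelial and pericyte markers had a median log2 fold of 0.58 and summed levels of 228 and 329 FPKM. Of its 12 tested genes 7 rose (58.3%, beside 19.0% of all tested features) and 5 did not pass. None fell by the authors' q, beside 22.2% of all tested features (2 were lower at an unadjusted p under 0.05). Among the 5 that did not pass, PECAM1 was higher in antibiotic, while EMCN and the pericyte genes RGS5, KCNJ8 and ABCC9 were lower. RGS5 stood at 43.3 and 33.2 FPKM (q = 0.0865) and EMCN at 14.6 and 6.31 FPKM (q = 0.0669). Of the pericyte genes only PDGFRB rose. VWF, a clotting factor of vessel walls, rose from 4.06 to 16.6 FPKM, CLDN5, a tight junction protein, from 54.9 to 106 FPKM (both q = 0.000336), and PDGFRB and MFSD2A also rose (both q = 0.00185), as the authors' deposited table lists them. Ependymal cells line the ventricle and carry cilia, and the list of their cilium markers had a median log2 fold of 0.03. Of 9 tested cilium markers 2 fell (22.2%, the share of all tested features), 1 rose (11.1%, beside 19.0%) and 6 did not pass. Their summed levels were 65.6 and 36.7 FPKM, of which DNAI1 alone made up 43.6 and 11.4 FPKM, so the lower sum rests on that row. FOXJ1, the master regulator of motile cilia, rose from 0.955 to 3.78 FPKM (q = 0.000891), while CCDC153 and DNAI1 fell 3.68-fold and 3.83-fold (q = 0.00312 and 0.0204), and TMEM212 was listed at 0 in control. Tanycytes are the ependymal cells of the hypothalamic floor, and the list of their markers had a median log2 fold of -0.26. Of 8 tested markers 3 fell (37.5%, namely VIM, FGF10 and SCN7A), 1 rose (12.5%, namely DIO2) and 4 did not pass. These markers summed to 148 and 97.6 FPKM, of which VIM alone made up 119 and 69.5 FPKM. A second DIO2 row at the same coordinates did not pass, at 2.88 and 2.32 FPKM (q = 0.702).

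Astrocyte markers summed to 4009 FPKM in control and 7306 in antibiotic, with a median log2 fold of 0.49. Of 6 tested genes 3 rose (50%, beside 19.0% of all tested features) and 1, AQP4, fell (16.7%, beside 22.2%). Of 5 tested neuron markers 2 rose (40%), 1 fell (20%) and 2 did not pass, and the list's median log2 fold was -0.06. They summed to 1005 and 1167 FPKM. Genes of the pituitary and pineal glands were low. The summed level of 11 pituitary genes was 5.86 and 6.22 FPKM, and POMC, which hypothalamic neurons also express, made up most of the antibiotic value at 4.34 FPKM. These sums join genes that differed in both directions. The untested genes GH and PRL were lower in antibiotic, at 1.13 and 0.0627 FPKM and at 0.531 and 0.0568 FPKM. POMC, LHB and the untested CGA were higher. POU1F1 and LHX4 were listed at 0 in control and GHRHR at 0 in antibiotic, and neither of the 2 tested genes passed by the authors' q, with POMC at an unadjusted p under 0.05. The 4 pineal genes summed to 1.83 and 5.65 FPKM, and AANAT, the only 1 tested, rose from 1.29 to 4.67 FPKM (q = 0.0164). Of 6 tested hypothalamic peptide genes 2 fell (33.3%, namely PMCH and OXT), with a median log2 fold of -0.27.

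**Figure D4:**
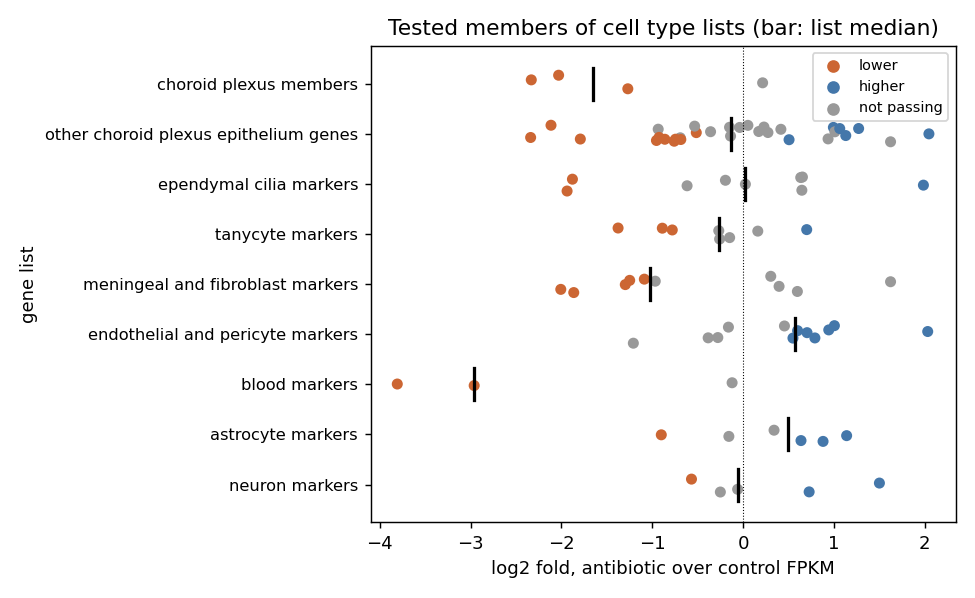
Log2 fold (antibiotic over control FPKM) of each tested gene by cell type list, coloured by the authors' q at 0.05, with a black bar at the list median; points are spread vertically for legibility. The 4 tested plexus markers have a median of -1.65, the blood and meningeal lists also have medians below 0, and the endothelial list has a median of 0.58, all on the deposited scale.

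The folds depend on how the groups are scaled against each other. The summed FPKM of the authors' table was 1.23e+06 in control and 563424 in antibiotic. Upper quartile, trimmed mean and quantile scaling moved the median log2 fold of all tested features by at most 0.06, and TTR, CLIC6 and KL then stayed between -1.21 and -2.38. Dividing by the summed FPKM instead, an alternative chosen after seeing the data, moved the median of all tested features by 1.13 and the share of rises among 2-fold calls from 46.6% to 94.4%. On that scale the log2 folds were -0.90 for TTR, -1.20 for CLIC6, -0.14 for KL, 1.34 for FOLR1 and 0.62 for PRLR, whose sign reversed. Relative to the median of all tested features the values cannot differ between both scales, because the division shifts every log2 fold equally. They were -2.00 for TTR, -2.30 for CLIC6, -1.24 for KL, 0.25 for FOLR1 and -0.47 for PRLR. As a share of the summed FPKM, TTR, CLIC6 and KL together made up 0.0238% in control and 0.0128% in antibiotic.

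**Figure D5:**
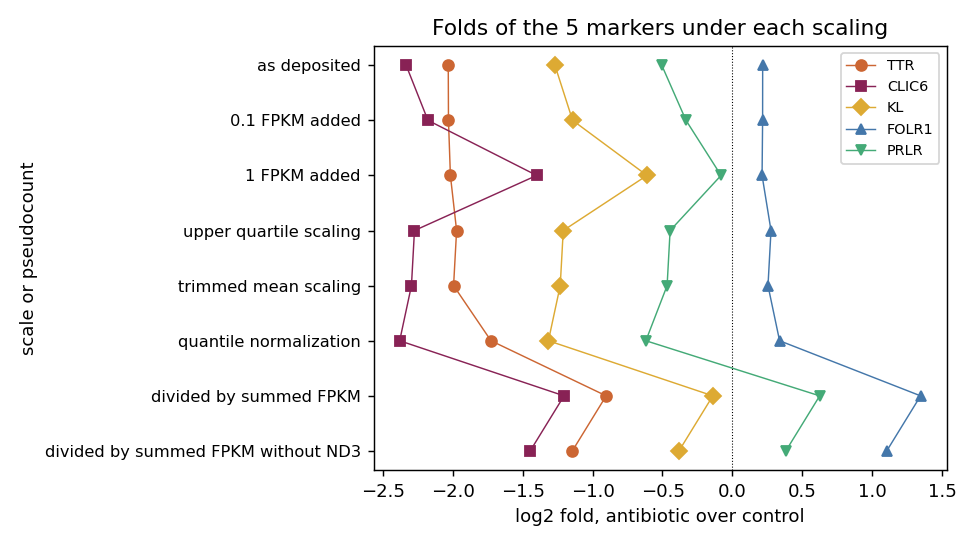
Log2 fold (antibiotic over control) of the 5 markers under the deposited scale, 2 pseudocounts and 5 other scalings; lines join the values of 1 gene. TTR, CLIC6 and KL stay below 0 and FOLR1 above 0 in all 8 settings, while PRLR changes sign in both settings that divide by the summed FPKM.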

How the data were processed

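Libraries from 4 control and 3 antibiotic hypothalami had been made with an Illumina TruSeq RNA kit from Trizol RNA and sequenced on an Illumina HiSeq, per the labels' protocols and the series design. Bowtie 0.12.2 is named in the submitters' processing notes beside susScr3 and mm8, all without roles; for quantifier, annotation and strand handling the sources used here give nothing. Per the file headers the authors deposited 1 FPKM per gene and group, a log2 fold without pseudocount, a p-value and q-value, and a test score that was not used. The significant column was tested on every row and equalled q under 0.05 with a 2-fold change. From 16997 rows, 6 blank ones were left out.

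The markers and gene lists were chosen with earlier results of these data known. Of 260 symbols on 16 further lists 202 were matched, 18 of them only through an Ensembl ID. Counts and medians were computed in Python 3.11.15 with pandas 2.3.3. Upper quartile, trimmed mean and quantile scaling were tested on simulated data, and division by the summed FPKM was not. Named genes were the 5 markers, the 12 most abundant and all called genes of the wider plexus list, the 4 smallest p of each other list (ties by fold), and the 3 features nearest each marker; some genes the rule names are not reported here, though list counts include them. RBP4, STAT5A, STAT5B, SLC4A5, SNAP25, FOLR2, GH, PRL and CGA lie outside the rule and were chosen after their values were seen, as were the meningeal, endothelial and pericyte genes named as not passing. Only some of the list genes at 0 or without a row are named. No library value exists, so no test, interval or leave-one-out value could be computed. Whether the libraries are separate animals is taken from the labels, and the authors' p measures their spread only as far as their test used it. No sequences are shown.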

Additional observations from a re-analysis of the deposited data

How the results depend on the processing

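No paired analysis was possible because the deposited table holds 1 value per group, and leaving out single libraries could not be run for the same reason. A q under 0.01 kept all 3 falls. With q under 0.05 and a 2-fold change, TTR, CLIC6 and KL counted under upper quartile, trimmed mean and quantile scaling and with 0.1 FPKM added. With 1 FPKM added, KL missed 2-fold at -0.61. Dividing by the summed FPKM left 1 of the 3 past 2-fold, with TTR at -0.90 and KL at -0.14, and PRLR reversed to 0.62. Dividing by that sum without the ND3 row gave -0.38 for KL and reversed PRLR to 0.38. These shifts follow from the scaling itself, which moved all features by 1.13 and 0.89. Relative to all tested features, the median of the ependymal list (0.06) turned to -0.065 under quantile normalization and -0.55 among genes with at least 5 FPKM, and that of the neuron list (-0.03) to 0.35 and 0.017; the cause was not tested. Quantile normalization put TTR at -1.73 and CLIC6 at -2.38. Depth per library is unknown, and the authors had not tested PRLR.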
